A study of Mus musculus with 2 samples.

Results

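Macrophages rich in transcripts of Pltp, Anxa1, Clec4n, Ahnak, Lgals1 and Mefv were taken from the CD45+ cells of pancreatic islets and described against the remaining islet macrophages. The 136 cells were the top 8% of 1706 macrophages by the summed level of these 6 genes, and the other 1570 macrophages served as the comparison. A level is given in CPM, the UMIs (unique molecular identifiers) of a gene per 1000000 RNA UMIs of the same cell or of the same summed class of cells. A cell entered the macrophage set when it held 200 genes or more, no more than 10% mitochondrial UMIs, 5000 RNA UMIs or more and 2000 CPM or more of C1qa, C1qb and C1qc together, the subunits of complement C1q. Of the 2237 barcodes deposited, 2215 met the gene and mitochondrial limits.

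The islets came from 6 to 8 male C57BL/6J mice of WT genotype and were pooled, and their age is not stated in the labels. Live (DAPI-) Epcam- CD45+ cells were sorted and labelled with DNA-barcoded antibodies before sequencing, and the series design text calls the mice myeloid WT. The protocol names antibodies to CD9 and CD206, the design text names CD9 alone, and both tags were counted. The RNA and the antibody library were read from the same cells and share all 2237 barcodes, so there was 1 sample. No mouse or day was replicated, every interval is a 95% interval for counting error alone, and no test between groups was possible. The members had a median of 22341 RNA UMIs (9184 to 83714) and the other macrophages 20827.5, the median mitochondrial share was 1.33% and 1.37%, and the median of the C1q sum was 6902 and 6832 CPM.

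Macrophages of pancreatic islets sit beside blood vessels and beta cells, present antigen and clear debris. In several tissues, macrophages that handle lipid or that arrive from blood monocytes are known to carry Trem2, Spp1, Gpnmb, Fabp5 and CD9, whereas annexins, S100 proteins and vimentin belong to the membrane and cytoskeletal equipment of motile myeloid cells. Pltp encodes a plasma protein that transfers phospholipids between lipoproteins. Anxa1 encodes annexin A1, a calcium-dependent membrane binder that signals through formyl peptide receptors. Clec4n encodes dectin-2, a C-type lectin receptor for fungal mannans. Ahnak encodes a giant scaffold protein at the plasma membrane that binds the complex of annexin A2 and S100A10. Lgals1 encodes galectin-1, a lectin for beta-galactosides, and Mefv encodes pyrin, a sensor that assembles an inflammasome.

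Surface protein was read through 15-base DNA tags coupled to the antibodies. Their sequences, which the reads have to carry to be counted, are shown because the antibody counts are the readout that played no part in choosing the cells.
CD9 tag: TAGCAGTCACTCCTA
CD206 tag: TCAACTCGGTGTTGC

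Promoters were examined for 17 genes that chose the cells or were high in them, and RefSeq entries on GRCm38.p6 were matched for 13 of them, with 14 start sites. TATAAA, the core of the TATA box, was searched on the gene's strand from 50 to 16 bases before the start, and TGANTCA, the AP-1 site, which reads alike on both strands, over 250 bases before it. TATAAA was present at 4 of the 13 genes (28.6% of the 14 promoters), against 2.40% of 32851 mouse promoters in the same window. TGANTCA was present at 1 of the 13 genes (7.14% of the 14 promoters), against 6.75% of all promoters. The genes were picked because they chose the cells or were high in them, so these shares are a description and no test of enrichment. The 4 promoters with TATAAA were chosen for display after this search, and they belong to genes of the annexin, S100 and vimentin group described later. TATAAA and TGAGTCA, the latter found in Anxa2 only, are in capitals, and a match of letters is a description, not a binding site.
Anxa1 promoter (chr19:20390672-20390921, minus strand; TATAAA begins 32 bases before the start): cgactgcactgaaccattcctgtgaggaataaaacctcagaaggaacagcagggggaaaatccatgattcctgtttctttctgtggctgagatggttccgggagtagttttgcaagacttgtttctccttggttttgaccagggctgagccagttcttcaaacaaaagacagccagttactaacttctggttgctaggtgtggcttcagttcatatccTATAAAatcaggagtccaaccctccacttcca
S100a4 promoter (chr3:90603520-90603769, plus strand; 31 bases before the start): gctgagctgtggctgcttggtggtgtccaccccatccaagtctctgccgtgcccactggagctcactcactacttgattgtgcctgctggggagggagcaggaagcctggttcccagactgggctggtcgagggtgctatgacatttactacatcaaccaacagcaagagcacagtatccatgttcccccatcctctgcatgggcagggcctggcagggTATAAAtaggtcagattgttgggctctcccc
Anxa2 promoter (chr9:69453433-69453682, plus strand; 17 bases before the start): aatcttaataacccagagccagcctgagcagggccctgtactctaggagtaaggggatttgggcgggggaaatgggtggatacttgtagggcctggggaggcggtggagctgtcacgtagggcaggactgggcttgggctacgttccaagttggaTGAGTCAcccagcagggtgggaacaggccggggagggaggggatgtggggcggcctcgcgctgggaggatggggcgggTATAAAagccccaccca
Vim promoter (chr2:13574061-13574310, plus strand; 32 bases before the start): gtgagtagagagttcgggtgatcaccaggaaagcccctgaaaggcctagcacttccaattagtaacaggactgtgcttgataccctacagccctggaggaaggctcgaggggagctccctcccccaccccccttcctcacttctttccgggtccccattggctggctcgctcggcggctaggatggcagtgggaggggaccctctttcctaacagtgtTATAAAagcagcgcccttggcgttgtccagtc

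The summed level that chose the members ran from 750.67 to 6292.67 CPM in them, with a median of 1219, and reached 740.604 CPM in the other macrophages, with a median of 60.4. It was 0 in 602 of the 1570 other macrophages (38.3%). The members were cut from a continuous level: 46 cells (2.70% of the macrophages), 22 of them members, lay within 10% of the lowest member. A cut at a fixed share of cells can leave cells close on both sides. Whether the members are a separate cell type is therefore not decided by these counts. The 20 lowest members ranged from 750.67 to 821.06 CPM and the 20 highest other cells from 684.125 to 740.604.

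Ahnak carried most of the summed level. It was the leading gene in 90 of the 136 members, with a median of 53.7% of the sum, whereas Clec4n led in 14, Anxa1 in 13, Lgals1 in 12, Pltp in 7 and Mefv in none. Pltp had a UMI in 75 members and Clec4n in 72, so that a name built on Pltp, Anxa1 and Clec4n does not describe every member, and the cells are called the 6-gene-high macrophages or members below. A UMI of Ahnak was counted in 128, of Lgals1 in 101, of Anxa1 in 100 and of Mefv in 74. All 6 genes were counted in 23 members and 5 in another 40. Together these are 46.3% of the members, against 27 (1.72%) of the other macrophages.

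**Figure D1:**
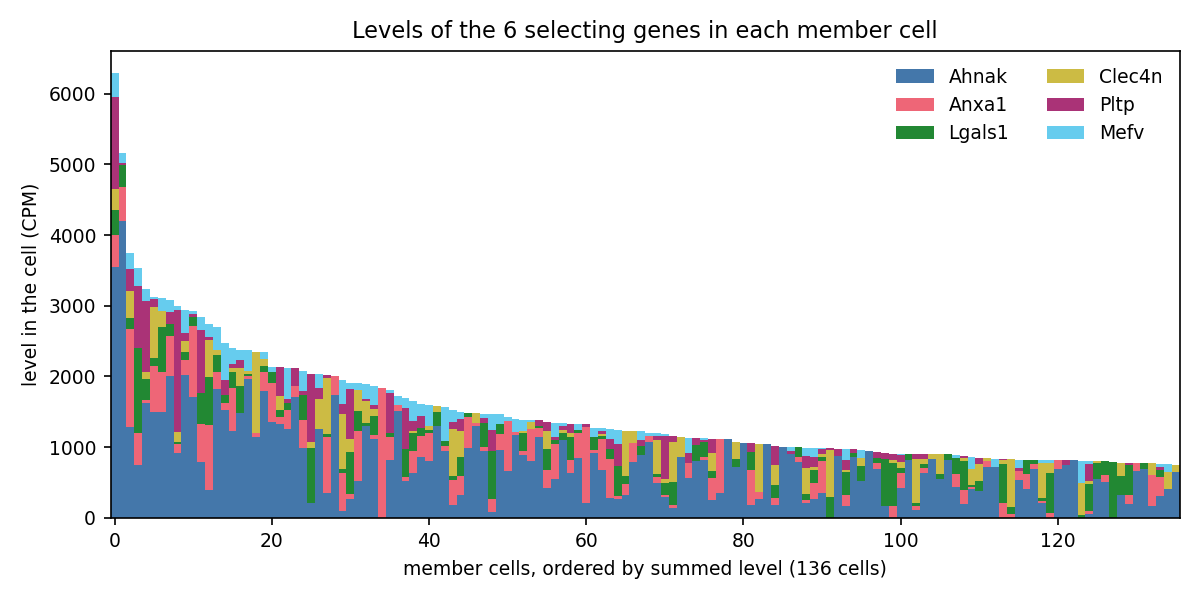
Stacked bars give the level (CPM) of each selecting gene in each of the 136 members, ordered by the sum. Ahnak (blue) led in 90 members, and the sum ran from 6292.67 CPM at the left to 750.67 CPM at the right.

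Pooled over cells, Ahnak stood at 755 CPM in members and 60.6 CPM in the other macrophages, and Anxa1 at 222 and 17.7 CPM. Pltp stood at 139.8 and 10.0 CPM, and Clec4n at 142 and 23.7 CPM. Lgals1 stood at 186 and 27.6 CPM and Mefv at 84.9 and 6.10 CPM. These values chose the cells and are a description only. As a further description, each gene was left out in turn and the top 8% were taken by the remaining 5. Pltp was then at 132 CPM in the cells taken and 10.9 CPM in the rest (ratio 12.04, 10.5 to 13.9), and Mefv at 79.1 and 6.66 CPM (11.9, 9.90 to 14.3). The ratio was 8.16 (7.31 to 9.11) for Anxa1 and 6.38 (6.01 to 6.78) for Ahnak, for which 94 of the 136 cells taken were members. It was 4.71 (4.22 to 5.25) for Lgals1 and lowest for Clec4n (3.38, 2.96 to 3.84). For the other genes left out, the cells taken were mostly the members again: 133 for Pltp, 131 for Mefv, 125 for Anxa1, 124 for Lgals1 and 120 for Clec4n. The 6 genes were grouped with earlier results of these data known, so these ratios are no test of whether they go together.

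Shares of cells were compared after each cell had been thinned to 5000 UMIs. Pltp was then counted in 28.7% of members (55.1% unthinned) and 4.01% of other macrophages (12.5%), and in 0.833% of 120 lymphoid cells, whose median depth was 9737.5 UMIs. These 120 were narrowed from 188 cells of a wider lymphoid choice after values were seen. In the 188 cells Pltp was counted in 10.1%, above the other macrophages and below the members. Clec4n was counted in 33.8% of members (52.9% unthinned), 7.83% of other macrophages (23.2%) and 0% of the lymphoid cells, which allows up to 3.03%. Mefv was at 27.9% (54.4% unthinned), 2.23% (7.52%) and 0%. In the 188 cells the shares were 8.51% for Clec4n and 9.57% for Mefv, both above those of the other macrophages. Lyz2, a gene of the macrophage list, was counted in 5% of the 120 and 18.6% of the 188 cells. The T cell gene Cd3e was counted in 70 cells of either set. The wider set thus took in cells with macrophage genes and is no clean lymphoid background for Pltp, Clec4n and Mefv. Ahnak, Lgals1 and Anxa1 were counted in 64.2%, 38.3% and 6.67% of the 120 lymphoid cells (67.0%, 38.8% and 17.6% of the 188), so these cells are no blank for them. For Anxa1 the share of the 120 cells was below that of the macrophage gene C1qb (11.7%). Whether lymphoid cells make Anxa1 was not tested. The shares of Ahnak, Lgals1 and Anxa1 in members were 90.4%, 42.6% and 44.1%, and 94.1%, 74.3% and 73.5% unthinned. In the other macrophages they were 16.6%, 9.36% and 5.03%, and 29.7%, 28.0% and 16.2% unthinned.

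The members carried the genes of macrophages. Of 16 macrophage markers, all had UMIs in members, and of the 13 measured beside C1q, 3 were at least 1.5-fold higher than in the other macrophages and none was as much lower. Csf1r, the receptor for the macrophage growth factor, stood at 355 and 328 CPM (ratio 1.08, 1.02 to 1.15), and Adgre1, which encodes F4/80, at 310 and 363 CPM (0.854, 0.801 to 0.911). C1qa stood at 2404 and 2572 CPM, C1qb at 2849 and 2728 CPM and C1qc at 1810 and 1743 CPM, as the macrophage gate requires of both. Lyz2, which encodes lysozyme, was the highest in ratio, at 3085 and 1220 CPM (2.53, 2.47 to 2.59).

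Of the lists of other cells, those of islet endocrine cells, T and NK cells and monocytes had the highest sums. T and NK cell genes summed to 647 CPM in members (per cell 0 to 1887) and 597 CPM in the other macrophages (0 to 2985), nearly all of it Il7r, the interleukin-7 receptor (636 and 584 CPM). The T cell receptor genes Cd3d, Cd3e and Cd3g had UMIs in 1 member each, and Cd8a and Gzma were at 0. B cell genes summed to 94.9 and 109 CPM, dendritic cell genes to 231 and 292 CPM, with Itgae at 0. Neutrophil genes summed to 56.8 and 45.1 CPM, mostly Csf3r (52.5 and 42.8 CPM), with S100a8, Lcn2, Camp, Ngp, Ly6g and Retnlg at 0. Endothelial genes summed to 16.2 and 15.7 CPM and fibroblast genes to 9.46 and 4.81 CPM. Hormone genes of islet endocrine cells summed to 2522 and 2980 CPM, and 12 of 14 acinar genes were at 0. Monocyte genes summed to 589 CPM in members (per cell 0 to 4229) and 299 CPM in the other macrophages (0 to 2617), with Ifitm6 and Ace at 0 in members. Their part in the results below was not tested.

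Surface CD9, a tetraspanin, was higher on the members. They carried a median of 2693.5 CD9 UMIs (7 to 19545, quartiles 999 and 5129.8), the other macrophages 563 and the lymphoid cells 54.5. The means were 3772 and 1647 UMIs, a ratio of 2.29 (2.28 to 2.30), and the medians differed 4.78-fold. Per RNA UMI the ratio was 2.06. Cd9 mRNA went the same way, at 439 and 197 CPM (ratio 2.23, 2.11 to 2.36). When the macrophages were divided by CD9 into terciles within deciles of RNA depth, 87 members (64.0%, 55.3 to 72.0) fell into the upper, 34 into the middle and 15 into the lower tercile, so that high CD9 was common among members but not shared by all.

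Surface CD206, the mannose receptor encoded by Mrc1, was also higher, and the size of the difference hung on few cells. The median was 28.5 UMIs in members, 8 in the other macrophages and 0 in lymphoid cells. The means of 124 and 16.6 UMIs gave a ratio of 7.50 (7.36 to 7.65), but 1 member held 6365 UMIs, and without it the ratio was 4.71 (4.60 to 4.82), a value computed after the data were seen. The medians differed 3.56-fold. Mrc1 mRNA stood at 52.5 and 29.7 CPM (1.77, 1.496 to 2.08), and its log2 ratio was 0.14 for the members not led by Ahnak. In the upper tercile of CD206 within depth deciles there were 83 members (61.0%), in the middle 29 and in the lower 24.

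**Figure D2:**
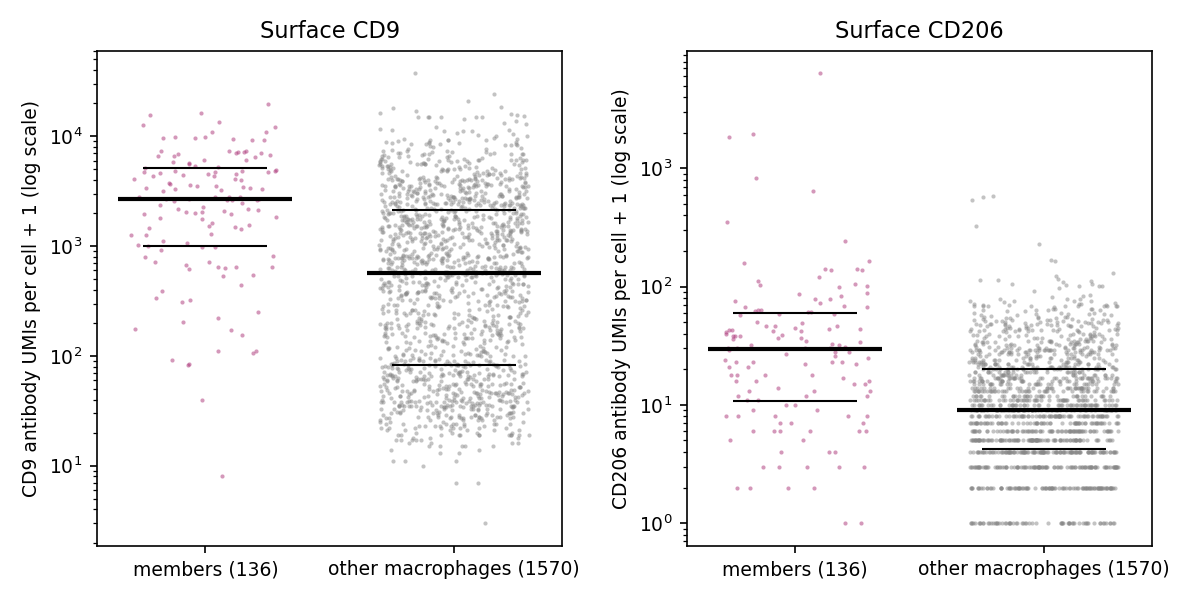
Each point is a cell, with its antibody UMIs plus 1 on a log axis, for the 136 members and the 1570 other macrophages; thick lines are medians and thin lines quartiles. The classes overlapped for both antibodies, with CD9 medians of 2693.5 and 563 UMIs and CD206 medians of 28.5 and 8 UMIs.

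Over the transcriptome, 9936 genes had 100 UMIs or more in both classes together, leaving out the 6 selecting genes and C1q. Of these, 1172 (11.8%) were at least 1.5-fold higher in members and 742 (7.47%) at least 1.5-fold lower, the shares against which the counts of the gene lists are to be read. The median gene stood 0.13 higher on the log2 scale. Relative to that median, 730 genes were higher and 1009 lower, so the balance of directions depends on the scaling. In 463 of the higher genes over 10% of the members' UMIs came from 1 cell, and 207 of them (17.7% of the higher genes) were under 1.5-fold without that cell. The cells were chosen from the same RNA counts, so the ratios of single genes are descriptions. The gene lists were chosen with earlier results of these data known, so their counts are descriptions as well.

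Among genes with no more than 10% of their member UMIs in 1 cell, those with the highest lower bound of the ratio were as follows; S100a4, S100a6 and Gpnmb had higher ratios but more of their UMIs in 1 cell. Adora2b, an adenosine receptor, stood at 24.4 against 3.52 CPM (ratio 6.94, 5.16 to 9.28) and was counted in 45 members. S100a10, the partner of annexin A2, stood at 167 against 25.2 CPM (6.63, 5.94 to 7.39). Gda, guanine deaminase, stood at 46.1 against 7.10 CPM (6.49, 5.26 to 7.99). Capg, an actin filament capping protein, stood at 133 against 27.3 CPM (4.86, 4.33 to 5.45). Next came Ikbke, a kinase of interferon and NF-kB signalling, with 4.75-fold, and Nr1h3, which encodes the oxysterol receptor LXR-alpha, with 4.62-fold. Fabp5, a fatty acid binding protein, was 4.43-fold and the membrane protein gene Ms4a4a 4.38-fold higher. Fabp5 was counted in only 51 of the 136 members and 331 of the 1570 other macrophages, and Ms4a4a in 44 and 120. The scavenger receptor Msr1 (3.76-fold), the integrin Itgam (CD11b, 3.67-fold), the adaptor Sh2b2 (3.90-fold), the exchange factor Arhgef10l (3.72-fold) and the sphingomyelin synthase Sgms1 (3.48-fold) completed the group with Anxa2 and Vim. For each of these 15 genes no single member held over 10% of the UMIs. Not all of them are particular to macrophages. After thinning, S100a10 was counted in 40.4% of members and 71.7% of the 120 lymphoid cells, Ikbke in 14.7% and 18.3%, and Sgms1 in 24.3% and 37.5%. The remaining genes of the 15 were counted in a smaller share of the lymphoid cells than of the members.

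**Figure D3:**
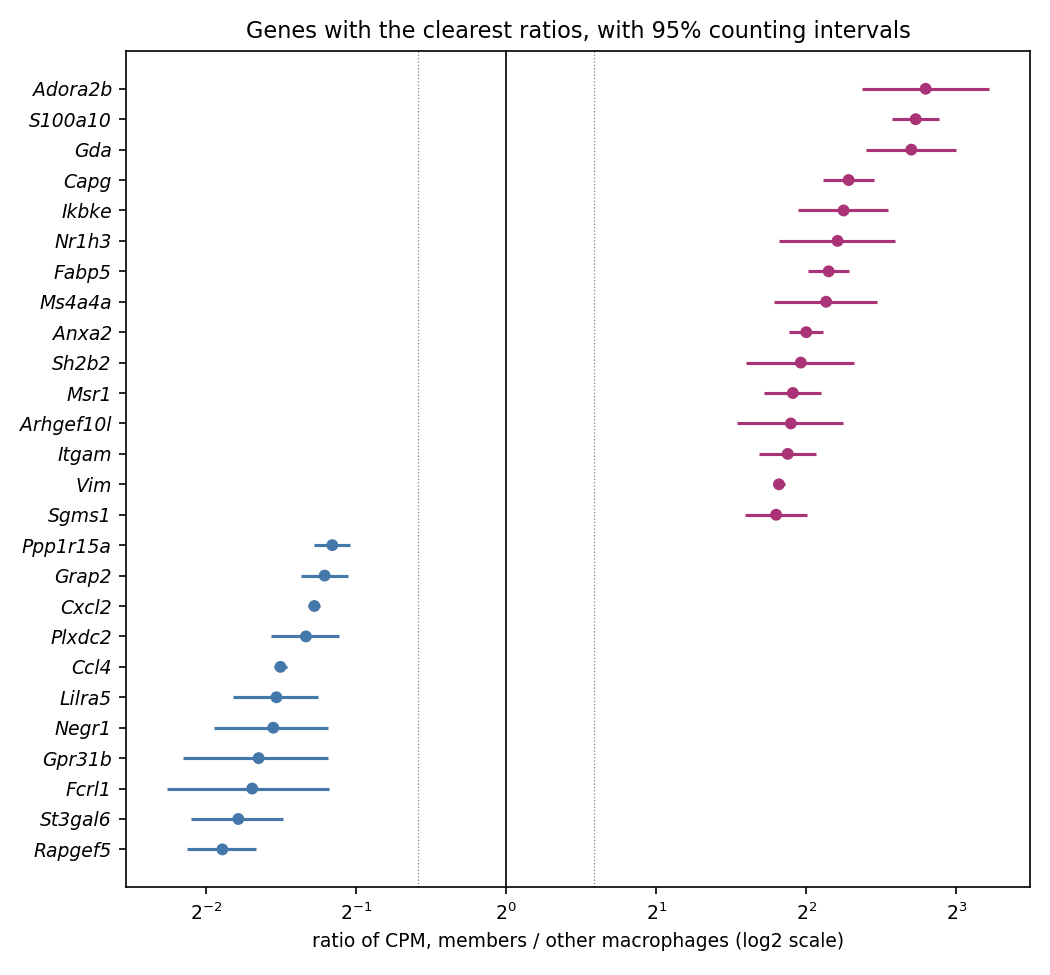
Points are ratios of CPM in members over other macrophages on a log2 axis, with 95% counting intervals as bars; dotted lines mark 1.5-fold. The 15 higher genes (purple) ran from 3.48 to 6.94, and the 11 lower genes with UMIs in members (blue) from 0.270 to 0.448.

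Of 13 measured annexin and S100 genes, 6 were at least 1.5-fold higher, none was lower, and the median log2 ratio was 0.57 against 0.13 for all genes. Anxa2 stood at 272 against 68.0 CPM (ratio 4.00, 3.70 to 4.32) and was counted in 121 of 136 members and 721 of 1570 other macrophages. S100a6 stood at 139 against 7.01 CPM (19.8, 16.9 to 23.3), and S100a4, whose product binds myosin, at 67.2 against 2.14 CPM (31.4, 24.0 to 41.4). In S100a4, 20.9% of the members' UMIs lay in 1 cell, and the ratio was 25.1 without it. After thinning, S100a6 was counted in 30.9% of members and 44.2% of the 120 lymphoid cells, S100a4 in 14.7% and 20.8%, and Anxa2 in 56.6% and 42.5%. The group did not move as a whole, since Anxa5 (1.06), Anxa7 (1.01) and Anxa11 (0.805), named here after their values were seen, differed by less than 1.5-fold. The receptors that annexin A1 acts on were scarcely counted, with 0 UMIs of Fpr1 and 2 of Fpr2 in the members. Of 10 measured inflammasome and receptor genes, 3 were higher and 2 lower (median log2 -0.13), with Pycard, the adaptor that pyrin binds, at 71.4 against 34.4 CPM (2.08, 1.80 to 2.39), Pstpip1, a pyrin partner, at 30.5 against 12.6 CPM, and Nlrp3 at 208 against 436 CPM (0.476, 0.440 to 0.514). Pstpip1 was under 1.5-fold for the members not led by Ahnak (log2 0.48), and Nlrp3 for the top 16% of cells (log2 -0.57).

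In the cytoskeletal list 6 of 20 genes were higher and none lower (median log2 0.29). Vim, which encodes the intermediate filament vimentin, stood at 1966 against 558 CPM (3.52, 3.42 to 3.62) and was counted in 134 of the 136 members. Tmsb10, an actin-sequestering thymosin, stood at 535 against 265 CPM (2.02, 1.92 to 2.13), and Lsp1, a leukocyte actin binder, at 215 against 102 CPM (2.10, 1.93 to 2.28). No galectin or glycan partner other than Lgals1 passed 1.5-fold among 8 measured (median log2 0.20), Lgals3 being at 2465 against 1698 CPM (1.45, 1.42 to 1.49).

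C-type lectin genes were higher in 7 of 14 measured and lower in none (median log2 0.63); Clec6a and Clec7a were not analysed here. Clec4d, which encodes dectin-3 and lies in the same lectin family as Clec4n, stood at 368 against 174 CPM (2.12, 1.99 to 2.26). Clec4e, the Mincle receptor, stood at 401 against 180 CPM (2.22, 2.09 to 2.36), and Clec4a1 at 50.4 against 16.6 CPM (3.03, 2.53 to 3.61). Lectins of this family are close copies of each other, and the treatment of reads shared between them is not stated in the labels.

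Of 18 monocyte genes only 9 passed the limit of 100 UMIs, with 7 higher and 1 lower (median log2 1.005). Ccr2, the chemokine receptor of recruited monocytes, stood at 81.2 against 23.7 CPM (3.43, 2.97 to 3.94), in 59 of 136 members and 292 of 1570 other macrophages. After thinning, Ccr2 was counted in 20.6% of members, 7.45% of other macrophages and 24.2% of the 120 lymphoid cells. Thbs1, thrombospondin, stood at 78.8 against 29.5 CPM, with 26.4% of the UMIs in 1 member (2.67, and 1.98 without it). The defining inflammatory monocyte gene Ly6c2 was nearly absent, with 9 UMIs in 5 members and 14 in 4 other macrophages. Nr4a1, a nuclear receptor of patrolling monocytes and also an immediate-early gene, stood at 50.7 against 128 CPM (0.396, 0.337 to 0.462).

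Genes of lipid-associated macrophages were split: 7 of 18 were higher, 1 lower and 10 neither (median log2 0.30). Gpnmb, a lysosomal glycoprotein, stood at 175 against 9.36 CPM (18.7, 16.3 to 21.5), but only 28 members held a UMI, 21.99% of the UMIs were in 1 of them, and the ratio was 14.7 without it. Spp1, which encodes osteopontin, stood at 433 against 80.3 CPM (5.39, 5.05 to 5.75), with 38.6% of the UMIs in 1 of the 59 members that held it, and 3.34 without that cell. With C1q of at least 4000 CPM its log2 ratio was 1.28 instead of 2.43. Ctsd, the lysosomal protease cathepsin D, stood at 861 against 271 CPM (3.18, 3.04 to 3.31), and Trem2, a lipid-sensing receptor, at 230 against 117 CPM (1.96, 1.81 to 2.12). Lpl, lipoprotein lipase, stood at 65.6 and 65.5 CPM (1.002, 0.867 to 1.15) and Apoe at 8485 and 8998 CPM (0.943, 0.931 to 0.955). The fatty acid transporter Cd36 was lower, at 337 against 785 CPM (0.429, 0.404 to 0.456). Over 15 fatty acid binding and storage genes 3 were higher and 3 lower (median log2 0.08); among the lower was Acsl1, which activates fatty acids (106 against 209 CPM), and Pparg stood at 129 and 186 CPM (0.698, 0.631 to 0.770).

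Of 12 measured targets and partners of the oxysterol receptor LXR, without Pltp, 5 were higher and none lower (median log2 0.38). Nr1h3 itself stood at 25.3 against 5.49 CPM (4.62, 3.52 to 6.01). Apoc2, the apolipoprotein that activates lipoprotein lipase, stood at 71.7 against 13.8 CPM (5.21, 4.44 to 6.11), with 16.2% of the UMIs in 1 member. The cholesterol exporters were close, Abca1 at 346 and 344 CPM (1.01, 0.946 to 1.07) and Abcg1 at 243 and 207 CPM (1.18, 1.09 to 1.26). In the sterol synthesis list 3 of 10 were higher and 1 lower (median log2 0.36).

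Antioxidant genes went in different directions by family. Of 9 measured glutathione transferases 5 were higher and none lower (median log2 0.72). Mgst1, a membrane-bound transferase, stood at 19.2 against 2.17 CPM (8.86, 6.23 to 12.6) in 25 members. Gstm1 stood at 45.8 against 26.1 CPM (1.76, 1.47 to 2.09), Gsto1 at 88.5 against 51.2 CPM (1.73, 1.52 to 1.96) and Gstp1 at 26.6 against 16.1 CPM (1.65, 1.30 to 2.07). Gstp1 was under 1.5-fold relative to the median gene (log2 0.58). Of 19 targets of NRF2, the transcription factor of the oxidative stress response, none was higher and 5 were lower (median log2 -0.09). Hmox1 encodes heme oxygenase and stood at 2104 against 3419 CPM (0.615, 0.600 to 0.630), and was less than 1.5-fold lower for the top 16% of cells (log2 -0.44). Gclc, which starts glutathione synthesis, stood at 183 against 286 CPM (0.640, 0.588 to 0.695), or log2 -0.23 for the members not led by Ahnak. Prdx1, a peroxiredoxin, stood at 4124 and 4754 CPM (0.867, 0.852 to 0.883). Of 12 other peroxidases and superoxide dismutases 1 was higher and none lower (median log2 0.35).

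Inflammatory cytokine and chemokine genes were lower as a group, with 12 of 22 at least 1.5-fold lower and 2 higher (median log2 -0.66). Ccl4 stood at 1354 against 3843 CPM (0.352, 0.342 to 0.363), Ccl3, a related chemokine, at 363 against 1218 CPM (0.298, 0.281 to 0.316), and Cxcl2, which draws neutrophils, at 1560 against 3785 CPM (0.412, 0.401 to 0.424). Il6 stood at 8.24 against 34.5 CPM (0.239, 0.157 to 0.350), which was log2 -0.66 instead of -2.06 without the 5% of cells richest in markers of other types. Il10 stood at 46.1 against 99.6 CPM (0.463, 0.390 to 0.545) and was close to level for the top 16% of cells (log2 -0.04). Il1b, the precursor of interleukin-1 beta, stood at 1466 and 1911 CPM (0.767, 0.745 to 0.790). One of the higher genes, Ccl8, had all of its 91 member UMIs in 1 cell, and the other was Ccl22 (33.3 against 12.8 CPM, 2.60, 2.08 to 3.21).

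Heat-shock genes were lower in 10 of 14 and higher in none (median log2 -0.70). Hspb1, a small heat-shock protein, stood at 387 against 794 CPM (0.487, 0.460 to 0.515) and Hspa8, the constitutive HSC70, at 1766 against 3189 CPM (0.554, 0.539 to 0.569). Interferon response genes were lower in 5 of 14 and higher in none (median log2 -0.26), with Isg15 at 300 against 601 CPM (0.499, 0.467 to 0.532) and Rsad2, which encodes viperin, at 626 against 1159 CPM (0.540, 0.517 to 0.565). Rsad2 was under 1.5-fold for the members not led by Ahnak (log2 -0.57). Immediate-early genes were lower in 4 of 17 and higher in 1 (median log2 -0.15).

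By the same rule, the deficits with the lowest upper bound of the ratio were these. Rapgef5, an exchange factor for small GTPases, stood at 49.5 against 184 CPM (0.270, 0.229 to 0.315). St3gal6, a sialyltransferase, stood at 28.4 against 97.9 CPM (0.290, 0.233 to 0.356) and Negr1, a neuronal adhesion molecule, at 18.6 against 54.6 CPM (0.341, 0.260 to 0.440). The receptors Fcrl1 (0.309), Gpr31b (0.319), Lilra5 (0.346) and Plxdc2 (0.396), the adaptor Grap2 (0.432) and the stress phosphatase subunit Ppp1r15a (0.448) were also lower. Kcnip1, Fam155a, Dnm3 and Tcte2 had 0 UMIs in members. With a floor of 3 counts over the class they were at least 7.78-fold, 3.62-fold, 3.49-fold and 3.36-fold lower, but 65.0% of the Kcnip1 and 65.5% of the Fam155a UMIs of the other macrophages lay in 1 cell. Without that cell the bounds were 2.73-fold and 1.25-fold. The iron exporter Slc40a1 stood at 17.4 against 68.2 CPM (0.255, 0.193 to 0.332), and its log2 ratio was -0.37 when Ahnak was left out of the selecting genes.

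Features described for resident islet macrophages were higher in 1 of 13 and lower in 3 (median log2 -0.34). Siglech stood at 29.6 against 66.2 CPM (0.447, 0.361 to 0.548) and the adhesion molecule Cadm1 at 394 against 802 CPM (0.491, 0.464 to 0.519). Cx3cr1, the fractalkine receptor, stood at 138 and 108 CPM (1.28, 1.16 to 1.41) and Tgfbr1 at 809 and 656 CPM (1.23, 1.18 to 1.28). MHC class II and costimulation genes were mostly level, with 2 higher and 1 lower of 14 (median log2 -0.01). H2-Aa stood at 10586 and 11464 CPM (0.923, 0.913 to 0.934), Cd74 at 24914 and 28668 CPM (0.869, 0.863 to 0.875), and the lower gene was Cd86 at 510 against 904 CPM (0.564, 0.536 to 0.592).

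Of the lists linked to repair, that of alternative activation was measured thinly, in 5 of its 11 genes. Of 5 measured alternative activation genes 3 were higher (median log2 1.37): Mgl2, a galactose lectin, at 41.2 against 9.62 CPM (4.28, 3.48 to 5.25), Tgm2, transglutaminase, at 85.8 against 33.3 CPM (2.58, 2.25 to 2.94), and Irf4 at 8.85 against 2.88 CPM. Of 13 efferocytosis genes 4 were higher and 1 lower (median log2 0.08), with the scavenger receptor Lrp1 at 213 against 72.5 CPM (2.94, 2.70 to 3.20). Of 17 growth factor and matrix genes 4 were higher and 2 lower (median log2 0.19). Igf1, insulin-like growth factor 1, stood at 41.5 against 9.74 CPM (4.26, 3.47 to 5.22) but was counted in 22 members only, and the elastase Mmp12 stood at 2824 against 4671 CPM (0.605, 0.592 to 0.617), or log2 -0.53 for the top 16% of cells. Of 7 measured osteopontin receptors 1 was higher, the integrin Itga4 (121 against 58.2 CPM, 2.08, 1.86 to 2.32), and 1 lower, Itga9. The shares of lysosomal, glycolysis and respiratory chain genes lay near the 11.8% of all genes. Lysosomal genes were higher in 3 of 18, glycolysis genes in 2 of 16 and nuclear respiratory chain genes in 3 of 20, with none lower in these lists and medians of 0.21, 0.37 and 0.41. Glucocorticoid response genes were higher in 1 and lower in 2 of 10 (median log2 -0.06), and cycling genes higher in 1 and lower in 3 of 8 (-0.32).

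Along the whole range of the 6-gene sum, other genes shifted in steps well before the members' limit. In the lowest 40% of macrophages Vim stood at 374 CPM, and it was at 453, 709 and 974 CPM in the ranges 40-60%, 60-80% and 80-92%, and at 1407 and 2485 CPM in the lower and the upper 68 members. The CD9 median went through 158.5, 622.5, 1410, 2094, 2674 and 2745 UMIs over the same ranges, and the CD206 median through 6, 9, 12, 16, 21.5 and 34. S100a4, by contrast, was at 0.894, 0.517, 2.78 and 7.002 CPM in the 4 ranges below the members, at 6.34 CPM in the lower and at 124 CPM in the upper 68 members. Gpnmb stood between 2.71 and 33.4 CPM below the members and at 123 and 223 CPM in them. Ccl4 went from 4780 CPM in the lowest range to 2042 and 715 CPM in members, and Hmox1 stood at 2988 CPM in the lower and 1282 CPM in the upper 68 members. The genes followed here and in the next paragraphs were chosen after their values were seen.

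**Figure D4:**
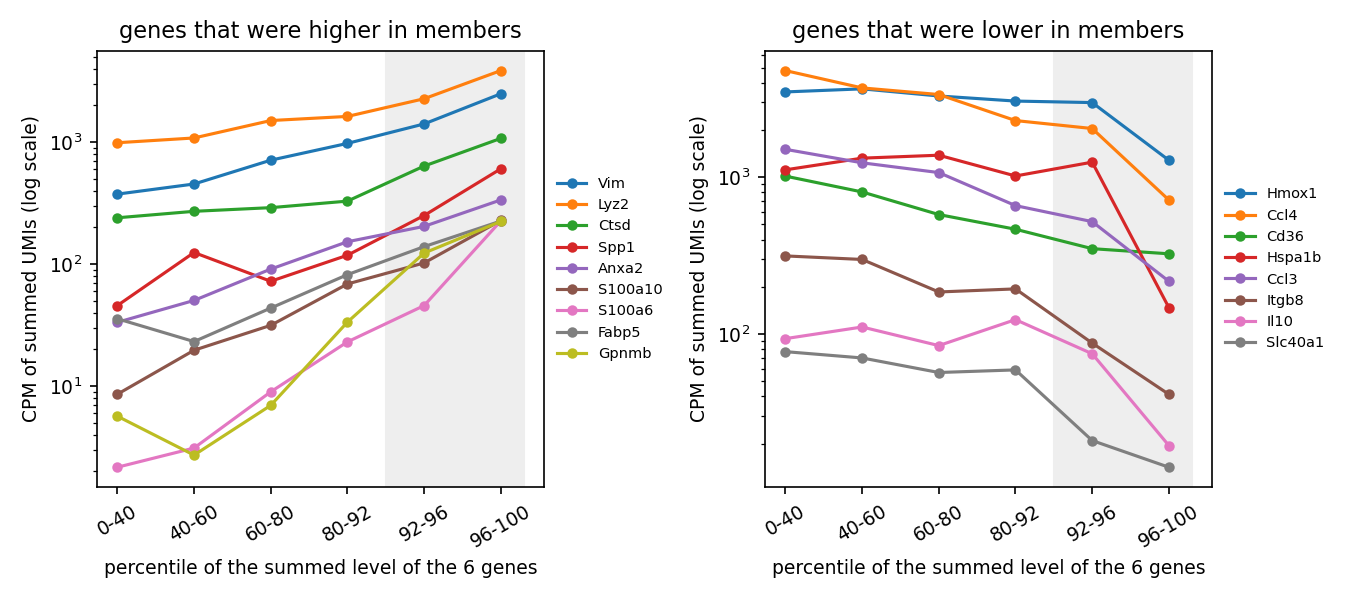
Lines give CPM of summed UMIs (log axis) in 6 ranges of the macrophages ordered by the 6-gene sum, for genes that stood higher (left) and lower (right) in members; the shaded ranges are the lower and upper 68 members. Vim went from 374 to 2485 CPM and Ccl4 from 4780 to 715 CPM between the outer ranges.

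The members were not uniform. The 90 members led by Ahnak and the 46 led by another gene had like pooled levels of Vim (2037 and 1849 CPM) and S100a6 (137 and 142 CPM). For S100a6, 32.2% of the UMIs of the 46 cells lay in 1 cell. Without the richest cell on each side its values were 126 and 98.1 CPM, and the medians over cells were 40.9 and 0 CPM. Gpnmb stood at 24.2 CPM in the Ahnak-led and 419 CPM in the other members, where 20 of 46 cells held it, against 8 of 90. Without the cell richest in Gpnmb on each side the values were 16.6 and 325 CPM. Ctsd stood at 305 and 1761 CPM, with 271 CPM in the macrophages outside the members, and at 277 and 1452 CPM without the richest cell. Fabp5 stood at 84.4 and 344 CPM, Trem2 at 146 and 366 CPM and Mgst1 at 7.41 and 38.4 CPM, all higher in the 46 cells. For Spp1 the values were 207 and 798 CPM, or 163 and 368 CPM without the richest cell. S100a10 (208 and 100 CPM), Clec4e (466 and 295 CPM) and Tgfbr1 (963 and 560 CPM) were higher in the Ahnak-led members. Surface CD9 had medians of 2589.5 and 4217.5 UMIs. Since the leading gene defines the split, Ahnak and the other selecting genes differ by construction.

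**Figure D5:**
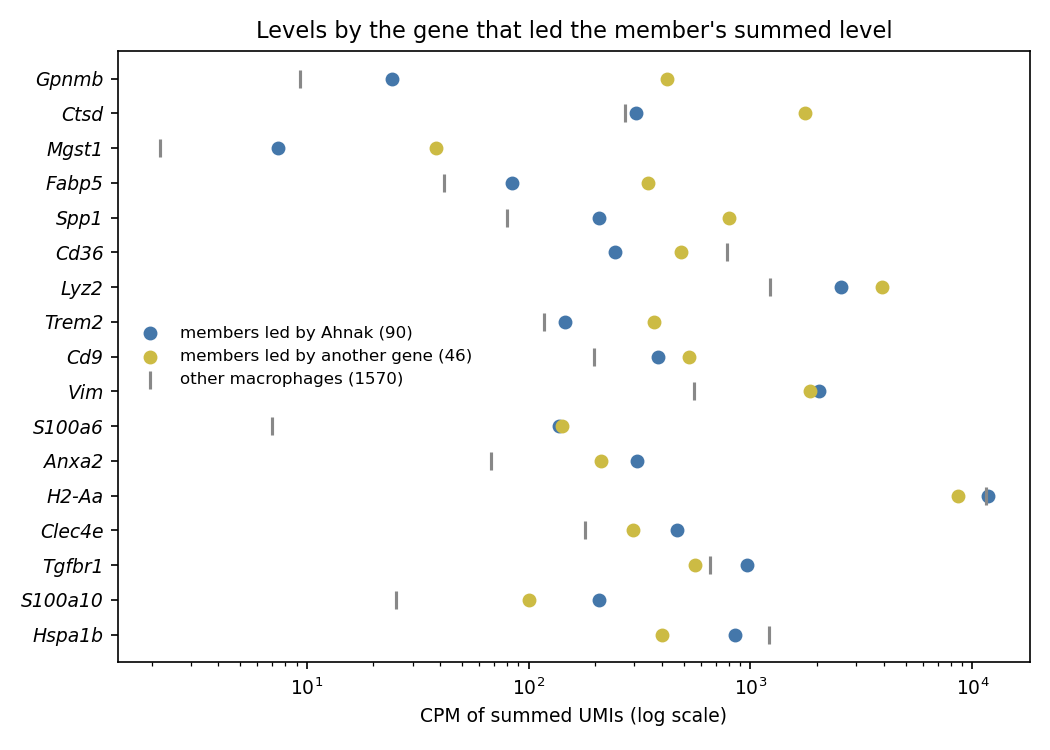
Points give CPM of summed UMIs (log axis) in the 90 members led by Ahnak (blue) and the 46 led by another selecting gene (yellow), and grey ticks the 1570 other macrophages. Gpnmb, Ctsd and Mgst1 stood furthest apart, and Vim and S100a6 lay together above the grey tick.

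The 37 members with a UMI of Spp1 after thinning differed from the 99 without in related genes. Fabp5 stood at 410 against 94.4 CPM (ratio 4.34, 3.67 to 5.14), Ctsd at 1693 against 533 CPM (3.17, 2.94 to 3.42), and Gpnmb at 338 against 111 CPM (3.06, 2.59 to 3.62). Single cells held much of Gpnmb on both sides, and without the richest cell of each the values were 208 and 71.1 CPM. For Ctsd, 28.7% of the UMIs of the 37 cells lay in 1 cell. Without the richest cell on each side Ctsd stood at 1266 and 478 CPM, and its medians over cells were 347 and 220 CPM. The median of Fabp5 over cells was 0 CPM on both sides. Hspa1b, the inducible HSP70, stood at 1547 against 334 CPM but was counted in 15 of 37 and 41 of 99 cells, with a median of 0 CPM on both sides. The upper 68 members by the 6-gene sum held less Hspa1b than the lower 68, at 147 against 1246 CPM, and more S100a6, at 226 against 45.6 CPM.

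A few cells set some values. Of the 12 genes of stromal resident macrophages 7 were measured, with 4 higher and 1 lower (median log2 0.82). Cbr2, a carbonyl reductase of such cells, had 102 UMIs in 10 members, 37 of them in 1 cell, and 6 UMIs in all other macrophages. The cell with 37 was the member with the highest 6-gene sum and the second highest CD206 (1966 UMIs), and it held 53 of the 181 Pf4 UMIs, 21 of the 39 Folr2 UMIs and all 8 Lyve1 UMIs of the members. Among the 12 genes of cavity macrophages 3 were measured, with 1 higher, the protease inhibitor Slpi, at 66.9 against 19.6 CPM in 21 members, 24.7% of it in 1 cell. Gata6, the defining factor of those cells, was at 0. Hormone transcripts were likewise uneven: 1423 of the 1529 Ppy UMIs, 420 of the 492 Pyy UMIs and 134 of the 160 Sst UMIs of the members came from 1 cell each.

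As a description of where members lay on genes that did not choose them, each macrophage was joined to its 15 nearest neighbours on 2000 variable genes without the 6. On average 32.5% of a member's neighbours were members, against 3.26% for the other macrophages and 7.97% members among all macrophages. The 6 genes were grouped with earlier results of these data known, so these shares are no test of whether members lie together. The quartiles over members were 11.7%, 26.7% and 53.3%, and 18 members had no member among their neighbours. Of 14 clusters on the same graph, 1 held 62 members (45.6%), which made up 37.6% of its 165 cells, and the others lay scattered over 12 clusters. In that cluster, members carried more Gpnmb (339 CPM) and Fabp5 (305 CPM) than members elsewhere (28.8 and 75.5 CPM), and less Hspa1b (52.6 against 1231 CPM) and Ccl4 (570 against 2050 CPM). Since these genes took part in the clustering, their differences are descriptions, and which cells formed the cluster depended on the settings: 76 members among 326 cells with 30 neighbours.

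The members were set beside equally large ranges of the macrophages chosen by other genes. The top 136 by Pdpn, Il10 and Clec4e shared 20 cells with the members (14.7%, 9.22 to 21.8), those by Cx3cr1 and Tgfbr1 15 (11.03%) and those by Slc40a1 and Pparg 4 (2.94%, 0.807 to 7.36). Members made up 7.97% of all macrophages, the share to set beside these, and the interval of the Cx3cr1 and Tgfbr1 range was 6.31 to 17.5. These intervals count cells of 1 pooled sample and are no test of the overlap. The CD9 medians were 2693.5 UMIs in members and 1344, 351.5 and 104 in these ranges, and the CD206 medians 28.5, 12, 7 and 5. Vim stood at 1966 CPM in members and at 965, 790 and 475 CPM, S100a6 at 139 CPM against 20.2, 14.9 and 3.83, Gpnmb at 175 CPM against 40.5, 15.3 and 10.3, and Ctsd at 861 CPM against 282, 193 and 266. Hmox1 was lowest in the Cx3cr1 and Tgfbr1 range (783 CPM) and stood at 3112 CPM in the Pdpn, Il10 and Clec4e range and 4034 CPM in the Slc40a1 and Pparg range, with members between at 2104 CPM. In the same order as for Vim, Ccl4 stood at 1354 CPM in members and at 3987, 913 and 2467 CPM in the ranges. Ccl3 stood at 363 CPM against 1354, 299 and 843, and Hspa1b at 677 CPM against 837, 43.6 and 326. Low levels of these 3 genes were thus not particular to the members. Clec4d stood at 368 CPM in members and at 354, 134 and 161 CPM, so its level was close to that of the Pdpn, Il10 and Clec4e range. Clec4e, which helped to choose that range, stood at 401 CPM in members and at 1279, 70.2 and 49.0 CPM. The ranges share cells, and their differences have no replicate check.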

How the data were processed

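RNA and antibody UMI counts per gene and barcode were deposited by the authors as 1 filtered matrix of 32285 genes, 2 tags and 2237 barcodes; the matrix was written by Cell Ranger 8.0.1 (per the file headers), and the submitters' processing notes give mm10. How barcodes were kept is not stated there. Of the symbols, 40 are shared by more than 1 gene ID. The members, the gene lists and the rules were chosen with earlier results of these data known. CPM were computed from summed UMIs, and a ratio of sums was given its exact conditional binomial interval at 95%. A gene was measured with 100 UMIs or more in both sums together, called at 1.5-fold, and its floor was 3 counts over the class. The named genes were the 15 higher and 15 lower genes by the interval bound nearest to 1, without genes with over 10% of member UMIs in 1 cell and without ribosomal, mitochondrial, endocrine, acinar, selecting and C1q genes, plus up to 4 genes per direction from each list and a fixed set of related genes. Clec6a, Clec7a and Mx1 were not analysed here. Other genes named were chosen after their values were seen, Hspa1b, Anxa5, Anxa7 and Anxa11 among them.

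Doublets were scored with Scrublet in scanpy 1.11.5. Its automatic threshold marked 6 cells (0.271%), too few to be a working call, so all cells were kept, and the 39 highest scores, 4 of them members, were removed as an alternative. Lymphoid cells had C1q under 500 CPM and 5 UMIs or more of lymphoid genes. They were narrowed from 188 to 120 cells after Il7r and Ighm were seen in macrophages. Neighbours used 30 principal components. Python 3.11.15, numpy 2.4.6, scipy 1.17.1, pandas 2.3.3, leidenalg 0.10.2 and matplotlib 3.10.9 were used. The ratio and interval step was tested on class sums simulated with counting error alone. That simulation had no spread between cells and so does not cover genes held by few cells. Alternatives changed the share of cells taken, the score, the gate, depth and count limits, the scaling, doublets, cells rich in other cell types' RNA and the neighbour graph.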

Additional observations from a re-analysis of the deposited data

How the results depend on the processing

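No paired analysis was possible because there was 1 sample. Of 149 named genes past 1.5-fold, 93 were past it in the same direction under each alternative that gave them a value (20 to 25 of the 31 run), and 17 changed sign under one or more. The cause was not tested for any of them, and the 4 genes with 0 UMIs in members have no log2 ratio to compare. The counts of 1172 higher and 742 lower genes became 1869 and 1179 for the top 4% of cells, 751 and 459 for the top 16%, 2029 and 1705 with at least 20 UMIs, 3702 and 6943 with no limit and 411 and 357 with at least 500 UMIs, where other genes were tested. Relative to the median gene 730 were higher, and for the members not led by Ahnak 1186 were lower. This split, the members with at least 3 selecting genes, each gene without its largest cell and CD206 without its top member were added after seeing the data.

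The CD9 ratio of 2.29 was 2.38 for both the top 4% and the top 16%, 2.70 with a score of log values, 2.08 within depth deciles, 4.78 by medians and 2.06 per RNA UMI. It was 2.27 and 2.32 with C1q of 1000 and 4000 CPM, 2.30 from 10000 UMIs, 2.31 without high doublet scores, 2.40 without endocrine-rich cells and 2.34 without cells rich in other types' markers. With Pltp, Anxa1, Clec4n, Ahnak or Mefv left out it was 2.25, 2.31, 2.20, 2.58 and 2.22. It was 2.53 with at least 3 selecting genes and 2.82 for members not led by Ahnak. Under the same settings, in order, the CD206 ratio of 7.50 was 5.20, 4.98, 7.05, 3.67, 3.56, 6.76, 7.26, 8.40 and 6.73. It was 7.96 without endocrine-rich cells, 7.81 without cells rich in other types' markers, 7.12 without Ahnak, 7.32 without Mefv, 8.52 with at least 3 selecting genes, 3.73 for members not led by Ahnak and 4.71 without its top member. The share of members among a member's neighbours was 29.9% with 30 neighbours.

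Signs reversed on the log2 scale as follows. For the top 4% Fabp4 was -2.78, Idi1 -1.74 and Top2a 0.015, and for the top 16% Nqo1 was 0.16, Xcr1 0.16 and Hbegf 0.25. With log values Xcr1 was 0.62, Timd4 2.91, Hbegf 1.01 and Top2a 0.031, and within depth deciles Fabp4 was -2.66 and Idi1 -0.031. Sst was -1.18 with C1q of 4000 CPM, Scg2 0.011 without endocrine-rich cells, and Klf2 -0.15 and Gpr34 -0.011 without Ahnak. Without the largest cell Fabp4 was -1.45, Sst -0.43, Chgb -0.68 and Ppy -1.03. For the members not led by Ahnak Fabp4 was -1.08, Sst -0.94, Atf3 0.00325, Il4i1 -0.42, Ccr7 -0.94, H2-DMb2 -0.55 and Gpr34 -0.77. The fibroblast list's median was 2.89 with no count limit and that of the T and NK list 0.12 with at least 500 UMIs. The UMIs counted limit genes with few counts, and no replicate exists.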
